A study of Mus musculus with 12 samples.

Results

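The effect of low oxygen alone was followed in primary mouse macrophages, as the difference between 1% oxygen and normoxia in medium with added NaCl and no added lactate. It was read from 6 of the series' 12 libraries, the 3 of hypoxia-NaCl and the 3 of normoxia-NaCl, over all 37620 gene rows of the deposited count table. The cells were bone marrow-derived macrophages of C57BL/6 mice, taken on day 7 of primary culture. Normoxia-NaCl cells were kept in ordinary oxygen with 25 mM NaCl and hypoxia-NaCl cells in 1% oxygen with 25 mM NaCl, so both groups carry the same salt. The remaining libraries, normoxia-lactate and hypoxia-lactate, had 25 mM sodium lactate in place of NaCl and serve here only for the shared spread and for a second look at the same oxygen change. How long the cells were exposed, how old the mice were and of which sex, and whether a group's libraries stem from different animals or dishes, the labels do not say. The p-values therefore measure only the spread between these libraries, which may be technical.

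Cells sense oxygen through enzymes that use it as a substrate. In normal oxygen, prolyl hydroxylases (Egln1 to Egln3) mark the alpha subunits of hypoxia-inducible factor (HIF) for destruction by the Vhl ubiquitin ligase. When oxygen falls, HIF alpha is spared, pairs with Arnt and raises genes for glucose uptake, glycolysis, lactate export, mitophagy, blood vessel growth and the hydroxylases themselves. Macrophages meet low oxygen in tumours, wounds and other poorly perfused tissue, where they are known for relying on glycolysis.

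Reads assigned to genes ran from 25328963 to 49438500 over the 6 libraries, and 15088 genes had enough reads to be tested. The labelled cell type fits its markers: the 8 defining macrophage genes summed to 33890.0 to 39750.0 CPM (counts scaled to a common library size with edgeR's TMM factors) in normoxia-NaCl and 35040.0 to 47760.0 CPM in hypoxia-NaCl. Most of that sum was Lyz2. Cd14 and Itgam were higher in every hypoxia library and Fcgr1 was lower, with 29.9, 17.8 and 20.5 CPM in normoxia-NaCl and 16.5, 8.64 and 17.4 CPM in hypoxia-NaCl. In Lyz2, Csf1r, Adgre1, Cd68 and Mertk the groups overlapped. Over the 6 libraries, markers of lymphocytes summed to 3.93 to 10.6 CPM, of mast cells and basophils to 2.69 to 6.55 CPM and of erythroid cells to 0.419 to 1.47 CPM, with 7 of 19, 6 of 12 and 5 of 10 members at 0 in every library. Marker sums of neutrophils (156 to 250.3 CPM in normoxia-NaCl, 196 to 257 CPM in hypoxia-NaCl), endothelium (249.8 to 351 and 237 to 316 CPM) and stroma (99.7 to 272 and 68.5 to 215 CPM) overlapped between the groups. Most of the neutrophil sum was Mmp8 and Csf3r, and most of the endothelial sum Vwf and Eng. In these 3 lists 7 of 16, 3 of 10 and 5 of 14 members were below 1 CPM in all 6 libraries. Normoxia-NaCl 1 stood apart from the other 5: 4.75% of its reads came from mitochondrially encoded genes against 2.04% to 2.42%, and its 100 most abundant genes took 33.7% of its reads against 27.5% to 29.1%. Hypoxia-lactate 3, in neither group, had 11437 genes with at least 10 reads against 13198 to 14767 in the other 11 libraries, and was left out of the fit. These are bulk RNA measurements, so a larger share of some cells and more RNA per cell cannot be told apart.

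Of the 15088 tested genes 186 rose (1.23%) and 84 fell (0.557%), 1.79% in all, at a Benjamini-Hochberg adjusted p under 0.05 in the quasi-likelihood test of edgeR, written below as edgeR adjusted p. Rises did not outnumber falls in every analysis: DESeq2 called 423 genes higher and 489 lower. At an unadjusted p under 0.05 there were 2790 genes. At least 2-fold changes made up 117 of the rises and 32 of the falls, while the median log2 fold change of all tested genes was 0.009. Of all tested genes 7703 had a positive change and 7384 a negative one. The groups did not overlap in 269 of the 270 called genes (all but Tal2, looked up after its values were seen), against 12.3% (higher) and 12% (lower) of all tested genes. The calls were picked by a test on these same values, so the lack of overlap is no separate evidence for them.

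In the fits that took no account of library number, the rises were far steadier than the falls. Leaving out each of the 11 libraries in turn, 73 rises (0.484% of tested genes) and 3 falls (0.0199%) kept their call every time. A fit of the 6 NaCl libraries alone called 50 higher (0.356%) and 9 lower (0.0641%), all of them among the 270, and 48 of the 73 steady rises and 2 of the 3 steady falls were among them. With hypoxia-lactate 3 back in the fit, 39 were higher and 2 lower, all among the steady calls. With the library number as a replicate block, 372 were higher (2.47%) and 395 lower (2.62%), the 270 included, so the share of higher calls went from 68.9% to 48.5%. The block fitted to the 6 NaCl libraries alone, an alternative chosen after seeing the data, called 140 higher and 56 lower. The total fell most without hypoxia-NaCl 1 (94), followed by hypoxia-NaCl 2 (123), hypoxia-NaCl 3 (125), normoxia-lactate 1 (154) and normoxia-NaCl 3 (168), and stood at 346 without normoxia-NaCl 2. Of those 346 calls 170 were falls. Counts within the gene lists moved as well: without normoxia-NaCl 2 there were 4 falls in place of 0 among iron handling genes and 2 in place of 0 among lysosomal genes, and without normoxia-NaCl 3 there were 5 in place of 3 among genes of cholesterol and fatty acid synthesis. A call described below as kept held in all 11 of these fits, and a value in parentheses beside a named alternative is its edgeR adjusted p. Genes named only because the block called them were chosen after their values were seen. Counts of rises and falls in the lists below stand beside 1.23% and 0.557% of all tested genes. With the block these shares were 2.47% and 2.62%.

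**Figure D1:**
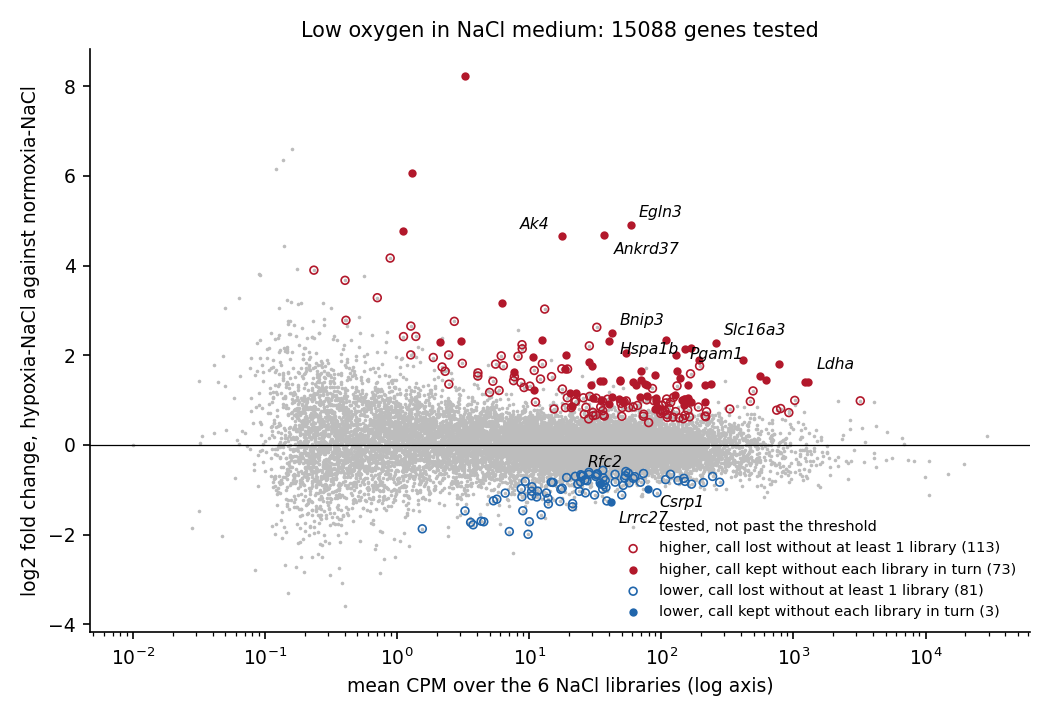
Each point is 1 of the 15088 tested genes, placed by its mean CPM over the 6 NaCl libraries (log axis) and its log2 fold change in low oxygen. Filled red points are the 73 rises and filled blue points the 3 falls that kept their call without each library in turn, and open circles are the 113 rises and 81 falls that did not. Of the 76 filled points 73 lie above 0.

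**Figure D2:**
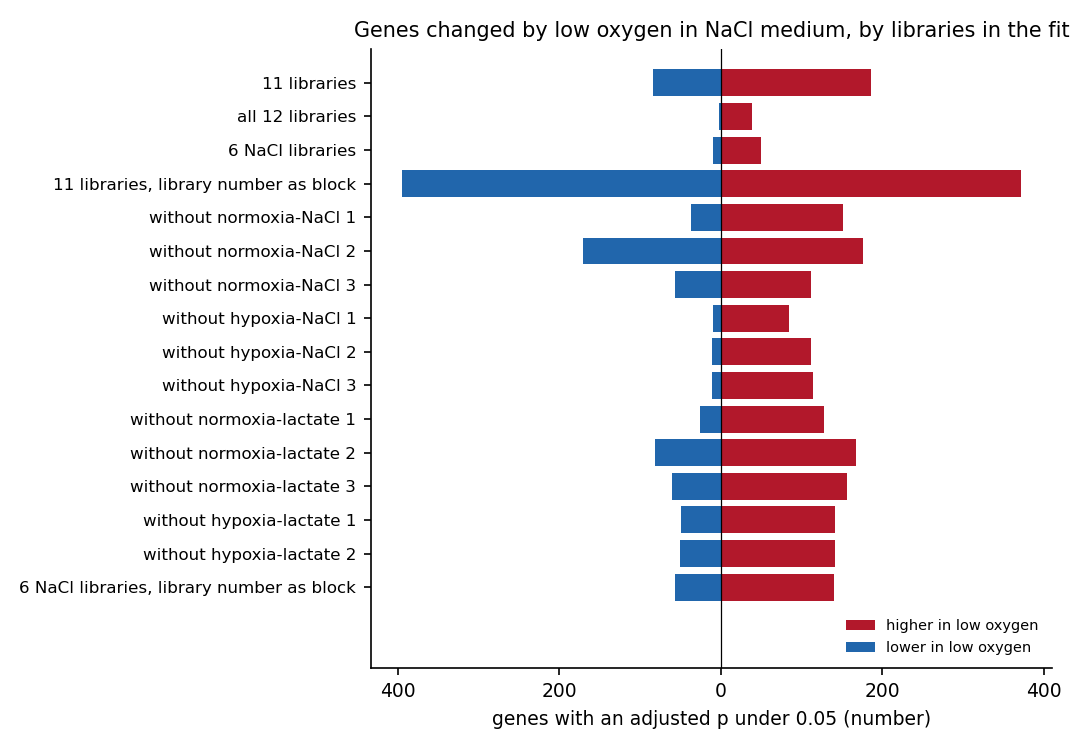
Bars give the number of genes called higher (right, red) and lower (left, blue) at an edgeR adjusted p under 0.05, for each set of libraries in the fit. The count of falls ran from 9 to 170 over the fits that leave out 1 library, and the count of rises from 85 to 176.

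Of the genes for oxygen sensors, Egln3 and Egln1 rose. Egln3, which encodes the prolyl hydroxylase PHD3, went from 3.24, 4.57 and 3.47 CPM in normoxia-NaCl to 103, 103 and 133 CPM in hypoxia-NaCl (log2 fold change 4.90 ± 0.22, edgeR adjusted p = 5.36e-08; here and below ± is the standard error of the fit, with 3 libraries per group in the order 1, 2, 3). Every hypoxia-NaCl library was more than 20 times above every normoxia-NaCl library. Egln1, which encodes the main HIF prolyl hydroxylase PHD2, went from 101, 69.2 and 70.03 CPM in normoxia-NaCl to 159, 114 and 193 CPM in hypoxia-NaCl (0.95 ± 0.20, edgeR adjusted p = 0.0328). The groups did not overlap, but the gap between normoxia-NaCl 1 and hypoxia-NaCl 2 was small, and the call was lost without normoxia-NaCl 2 or 3, hypoxia-NaCl 1 or 3, or normoxia-lactate 1 (edgeR adjusted p = 0.0613 to 0.137). Egln2, the third prolyl hydroxylase gene, was not called at 92.6, 65.5 and 73.9 CPM in normoxia-NaCl and 64.5, 59.6 and 48.8 CPM in hypoxia-NaCl (-0.42 ± 0.18, edgeR adjusted p = 0.237). These were the 2 rises and no fall among 10 tested HIF subunits and sensors, with a median of 0.14 against 0.009 over all tested genes (0.08 without normoxia-NaCl 1 or 2, 0.27 without normoxia-NaCl 3, 0.25 without normoxia-lactate 1, 0.24 without normoxia-lactate 2 or 3).

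The transcripts of HIF itself showed no difference beyond the spread of the libraries. Hif1a, the oxygen-regulated alpha subunit, had 41.9, 41.4 and 34.3 CPM in normoxia-NaCl and 38.96, 44.6 and 36.96 CPM in hypoxia-NaCl, and both groups covered the same range (0.037 ± 0.14, edgeR adjusted p = 0.918). Epas1, which encodes HIF-2 alpha, had 11.2, 15.7 and 14.01 CPM in normoxia-NaCl and 14.7, 13.2 and 7.49 CPM in hypoxia-NaCl, lowest in hypoxia-NaCl 3 (-0.21 ± 0.28, edgeR adjusted p = 0.736). The partner gene Arnt (0.28 ± 0.17), Vhl (0.24 ± 0.14), the asparaginyl hydroxylase gene Hif1an (-0.17 ± 0.12) and Cited2, a competitor of HIF for its coactivators (0.25 ± 0.16), did not pass either, with edgeR adjusted p from 0.38 to 0.457. Arnt2 was near the lower limit of counting, at no more than 0.281 CPM in any library (-0.89 ± 0.94, edgeR adjusted p = 0.646).

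Promoters of leading members are shown because the genes moved together and because HIF is known to bind short core letters near gene starts. Each is the 250 bases before a RefSeq gene start in GRCm38.p6, written 5′ to 3′ on the gene's own strand, with capitals on every match of the letters ACGTG or GCGTG on either strand (so CACGT and CACGC when read on the other one). Matches on the 2 strands can overlap, as in CACGTG and CACGCGTG.
Egln3: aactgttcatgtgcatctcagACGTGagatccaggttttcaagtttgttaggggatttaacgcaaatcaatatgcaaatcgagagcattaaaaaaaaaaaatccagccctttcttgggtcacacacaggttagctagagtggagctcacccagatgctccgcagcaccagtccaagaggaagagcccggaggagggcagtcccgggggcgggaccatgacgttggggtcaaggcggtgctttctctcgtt
Ankrd37: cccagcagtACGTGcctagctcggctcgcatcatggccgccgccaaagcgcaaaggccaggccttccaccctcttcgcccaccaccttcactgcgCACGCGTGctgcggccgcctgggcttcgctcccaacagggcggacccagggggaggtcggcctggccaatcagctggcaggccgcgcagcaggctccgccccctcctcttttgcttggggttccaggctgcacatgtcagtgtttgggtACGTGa
Slc16a3: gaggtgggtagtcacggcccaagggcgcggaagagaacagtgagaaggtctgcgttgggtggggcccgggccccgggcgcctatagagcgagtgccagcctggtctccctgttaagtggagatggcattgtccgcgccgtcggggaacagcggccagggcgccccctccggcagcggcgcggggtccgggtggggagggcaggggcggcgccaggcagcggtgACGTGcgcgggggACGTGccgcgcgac
P4ha2: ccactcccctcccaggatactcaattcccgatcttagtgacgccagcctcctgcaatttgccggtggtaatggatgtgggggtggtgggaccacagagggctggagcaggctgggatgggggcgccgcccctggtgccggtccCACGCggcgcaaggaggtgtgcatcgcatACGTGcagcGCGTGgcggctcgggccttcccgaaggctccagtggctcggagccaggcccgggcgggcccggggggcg
Slc2a1: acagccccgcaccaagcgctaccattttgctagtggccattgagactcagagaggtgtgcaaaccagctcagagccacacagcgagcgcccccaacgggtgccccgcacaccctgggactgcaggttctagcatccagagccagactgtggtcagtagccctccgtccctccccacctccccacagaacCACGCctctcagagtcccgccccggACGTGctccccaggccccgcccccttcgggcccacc
Ldha: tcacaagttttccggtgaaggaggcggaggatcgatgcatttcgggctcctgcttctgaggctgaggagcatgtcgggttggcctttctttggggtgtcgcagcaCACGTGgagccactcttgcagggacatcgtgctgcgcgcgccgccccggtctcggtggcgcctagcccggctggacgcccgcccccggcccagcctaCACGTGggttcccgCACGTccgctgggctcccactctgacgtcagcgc
The windows lie at chr12:54203875-54204124, minus strand (Egln3); chr8:45999851-46000100, minus strand (Ankrd37); chr11:120948817-120949066, plus strand (Slc16a3); chr11:54100674-54100923, plus strand (P4ha2); chr4:119108495-119108744, plus strand (Slc2a1) and chr7:46845554-46845803, plus strand (Ldha, 1 of 2 windows that RefSeq lists for it). ACGTG was found 1 time in Egln3, P4ha2 and Slc2a1, 2 times in Ankrd37 and Slc16a3 and 5 times in Ldha, counting both strands, while GCGTG was found 2 times in Ankrd37 and P4ha2 and 1 time in Slc2a1. Of all 32851 RefSeq windows of this length, 16.6% held ACGTG and 28.2% held GCGTG. Of the 10033 tested genes with a window, 24.7% held ACGTG and 49.6% held GCGTG, so a match by itself is common. The 6 windows were picked by hand with their letters in view and are no sample of the risen genes. A window was at hand for 131 of the 186 risen genes, of which 35.9% held ACGTG and 54.2% held GCGTG. For the 84 fallen genes it was 65, with 16.9% and 55.4%. The genes without a window are not covered, so these are no shares over the whole sets. Whether they differ from those of the tested genes was not tested. The matches are letters in a window and say nothing of binding in these cells.

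The rises of Ankrd37 and Ak4, both known as HIF-responsive genes, were close in size to that of Egln3. Ankrd37, which encodes a short ankyrin repeat protein, went from 2.81, 2.77 and 2.63 CPM in normoxia-NaCl to 67.5, 62.7 and 80.4 CPM in hypoxia-NaCl (4.68 ± 0.18, edgeR adjusted p = 1.76e-08). Its 3 normoxia-NaCl values were nearly equal, and it had the smallest p of all tested genes. Ak4, which encodes a mitochondrial matrix adenylate kinase, went from 0.797, 1.41 and 1.66 CPM in normoxia-NaCl to 34.8, 20.3 and 47 CPM in hypoxia-NaCl (4.67 ± 0.43, edgeR adjusted p = 0.000192). Hypoxia-NaCl 2 was the lowest of the hypoxia libraries for Ak4 and still more than 10 times above any normoxia library. The processed pseudogene Ak3l2-ps, a near copy of an adenylate kinase gene, had 0, 1 and 8 reads in normoxia-NaCl and 112, 29 and 96 in hypoxia-NaCl, so the reads of the copies cannot be separated with certainty.

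**Figure D3:**
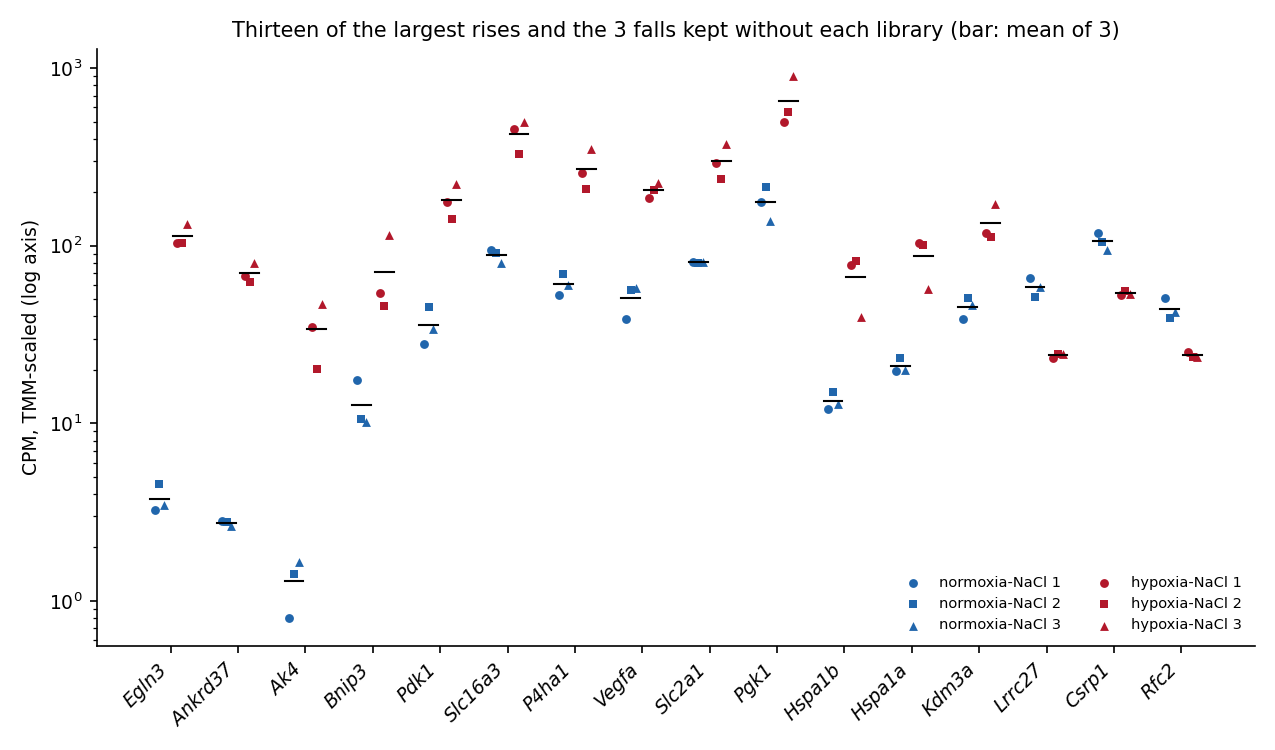
Points are the CPM (log axis) of 16 genes in each of the 6 NaCl libraries, blue for normoxia and red for hypoxia, with the marker shape giving the library number and the bar the mean of 3. The first 13 genes are higher and the last 3 lower in every hypoxia library than in any normoxia library.

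Glucose uptake and the first steps of glycolysis rose at 4 of 16 tested members, and none fell. The list's median was 0.36, against 0.009 over all genes. Slc2a1, the gene of the glucose transporter GLUT1, went from 81.1, 79.9 and 81.2 CPM in normoxia-NaCl to 293, 236 and 376 CPM in hypoxia-NaCl (1.90 ± 0.19, edgeR adjusted p = 0.000321). The normoxia values lay within 2 CPM of each other, and the lowest hypoxia value was well clear of them. Hk2, the inducible hexokinase that commits glucose to the cell, went from 76.8, 80.7 and 83.9 CPM in normoxia-NaCl to 157, 179 and 186 CPM in hypoxia-NaCl (1.11 ± 0.14, edgeR adjusted p = 0.00109). Pfkl, the liver-type phosphofructokinase subunit, went from 78.4, 55.3 and 57.5 CPM in normoxia-NaCl to 219, 142 and 241 CPM in hypoxia-NaCl (1.66 ± 0.24, edgeR adjusted p = 0.00366). Pfkfb3, whose product makes the activator of phosphofructokinase, went from 29.9, 31.99 and 37.3 CPM in normoxia-NaCl to 79.6, 89.7 and 94.5 CPM in hypoxia-NaCl (1.41 ± 0.14, edgeR adjusted p = 0.000347). All 4 calls were kept.

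The other members of the list, paralogs of these 4 genes among them, did not pass. Slc2a3, a second glucose transporter gene, had 19.5, 18.3 and 17.1 CPM in normoxia-NaCl and 19.2, 20.9 and 19.6 CPM in hypoxia-NaCl, with overlapping groups (0.12 ± 0.13, edgeR adjusted p = 0.646). Hk1 had 0.23 ± 0.18 and Hk3, a hexokinase gene prominent in myeloid cells, -0.55 ± 0.16, the latter lower in all 3 hypoxia libraries. Hk3 did not pass (edgeR adjusted p = 0.0968), but did with the replicate block (0.0296) and without normoxia-NaCl 2 (0.0469). Pfkp, the platelet-type phosphofructokinase, had 114, 126 and 139 CPM in normoxia-NaCl and 194, 167 and 264 CPM in hypoxia-NaCl, with no overlap (0.72 ± 0.17, edgeR adjusted p = 0.056; 0.0128 with the block, and 0.05, under the threshold before rounding, without hypoxia-NaCl 2). Pfkm (-0.32 ± 0.13), Pfkfb2 (0.50 ± 0.21) and Pfkfb4 (-0.076 ± 0.12) did not pass. Gpi1 and Aldoa, both abundant glycolytic enzymes, had their highest normoxia value in normoxia-NaCl 1. Gpi1 stood at 1117, 522 and 541 CPM in normoxia-NaCl and 1282, 1059 and 1691 CPM in hypoxia-NaCl (0.89 ± 0.28, edgeR adjusted p = 0.124, and 0.00543 without normoxia-NaCl 1). Aldoa stood at 2805, 1812 and 1906 CPM in normoxia-NaCl and 3290.1, 2955 and 3322 CPM in hypoxia-NaCl (0.55 ± 0.20, edgeR adjusted p = 0.169, and 0.0329 without normoxia-NaCl 1). The part that the composition of normoxia-NaCl 1 has in these values was not tested.

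Lower glycolysis and lactate export rose at 6 of 13 tested members, again with no fall. The median of the list was 0.47, and it was 0.99 without normoxia-NaCl 1, 0.85 without normoxia-NaCl 3. Pgk1, phosphoglycerate kinase, went from 177, 215 and 137 CPM in normoxia-NaCl to 496, 569 and 898 CPM in hypoxia-NaCl (1.89 ± 0.23, edgeR adjusted p = 0.00109). Pgam1, phosphoglycerate mutase, went from 235, 310.4 and 315 CPM in normoxia-NaCl to 797, 766 and 950.0 CPM in hypoxia-NaCl (1.54 ± 0.16, edgeR adjusted p = 0.000347). Slc16a3, whose product MCT4 exports lactate, went from 94.95, 90.9 and 79.5 CPM in normoxia-NaCl to 453, 327 and 499 CPM in hypoxia-NaCl (2.27 ± 0.24, edgeR adjusted p = 0.000379). Of these genes Slc16a3 had the largest change, and no value of 1 group reached the other. Ldha, which encodes the lactate dehydrogenase subunit that favours lactate, went from 923, 649 and 549 CPM in normoxia-NaCl to 1869, 1655 and 2097 CPM in hypoxia-NaCl (1.41 ± 0.21, edgeR adjusted p = 0.00504). Triose phosphate isomerase, Tpi1, went from 451, 289 and 254 CPM in normoxia-NaCl to 915, 695 and 1084 CPM in hypoxia-NaCl (1.44 ± 0.23, edgeR adjusted p = 0.00809). Enolase 1, Eno1, went from 886, 630.3 and 503 CPM in normoxia-NaCl to 1838, 1628 and 1899 CPM in hypoxia-NaCl (1.41 ± 0.24, edgeR adjusted p = 0.0101). In the last 3 genes the highest normoxia value was again in normoxia-NaCl 1. All 6 calls were kept, though the 6 NaCl libraries alone gave 0.0563 for Ldha, 0.0706 for Tpi1 and 0.0564 for Eno1, just over the threshold.

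The remaining members of the lower pathway had small or opposite changes. Gapdh had 1609, 799.9 and 586 CPM in normoxia-NaCl and 1195, 1462 and 1481 CPM in hypoxia-NaCl, where normoxia-NaCl 1 was the highest of all 6 (0.47 ± 0.29, edgeR adjusted p = 0.412, and 0.0233 without that library). Pkm, pyruvate kinase, had 0.43 ± 0.25, Bsg, the chaperone of the lactate transporters, 0.082 ± 0.22, and Slc16a1, the gene of the lactate carrier MCT1, 0.025 ± 0.15. Ldhb, the subunit that favours pyruvate, had 6.47, 7.39 and 7.16 CPM in normoxia-NaCl and 3.0, 3.27 and 4.29 CPM in hypoxia-NaCl. It was lower in every hypoxia library and did not pass (-0.997 ± 0.28, edgeR adjusted p = 0.0929), but did with the block (0.0355). Eno2 had 7.27, 12.9 and 30.2 CPM in normoxia-NaCl and 22.6, 13.7 and 18.1 CPM in hypoxia-NaCl with overlapping groups, and Eno3 a log2 fold change of 0.27 ± 0.30.

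Several of these genes have processed pseudogenes or near copies whose reads cannot be separated with certainty. Among the 186 rises 17 were pseudogenes, against 1728 of the 15088 tested genes, and 4 of the 84 falls were (Gm5786, Tdpx-ps1, Gm15590 and Gm10420, named after their values were seen). Pgam1-ps2 went from 24.7, 43.5 and 33.01 CPM in normoxia-NaCl to 96.8, 97.1 and 122 CPM in hypoxia-NaCl (1.64 ± 0.19, edgeR adjusted p = 0.000927), a rise close to that of Pgam1 itself. Pgk1-rs7 rose by 2.13 ± 0.27 and Ldha-ps by 1.77 ± 0.29, the first kept and the second lost without hypoxia-NaCl 1 (edgeR adjusted p = 0.0524). These 2 were also picked after their values were seen.

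Glycogen metabolism showed 1 rise among 14 tested members, with a median of 0.14 (0.03 without normoxia-NaCl 3). Pgm1, a phosphoglucomutase that links glucose phosphates to glycogen, went from 37.7, 34.3 and 34.4 CPM in normoxia-NaCl to 69.05, 56.6 and 81.6 CPM in hypoxia-NaCl (0.96 ± 0.17, edgeR adjusted p = 0.0149). The call was lost without normoxia-NaCl 3 or hypoxia-NaCl 1 or 3 (edgeR adjusted p = 0.0503 to 0.0657). Gys1, glycogen synthase, had 52.7, 31.6 and 31.4 CPM in normoxia-NaCl and 74.3, 53.8 and 97.03 CPM in hypoxia-NaCl (0.96 ± 0.23, edgeR adjusted p = 0.058) and missed the threshold. It passed with the block (0.0267), without normoxia-NaCl 1 (0.0149) and without hypoxia-NaCl 2 (0.04). Gbe1, the branching enzyme (0.20 ± 0.18), and the phosphorylases Pygl (0.12 ± 0.20) and Pygb (-0.43 ± 0.14) did not pass.

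At the gate from glycolysis into mitochondria 1 of 14 members rose. Pdk1, the kinase that switches pyruvate dehydrogenase off, went from 27.9, 45.2 and 33.8 CPM in normoxia-NaCl to 177, 141 and 224 CPM in hypoxia-NaCl (2.34 ± 0.21, edgeR adjusted p = 0.000164), and the call was kept. Each hypoxia library was more than 3 times above the highest normoxia library. The other kinase genes were low or level: Pdk2 had -0.37 ± 0.22, Pdk3 -0.38 ± 0.21 and Pdk4, at most 1.01 CPM in any library, -0.30 ± 0.62. The dehydrogenase subunits Pdha1 (-0.43 ± 0.13), Pdhb (0.052 ± 0.14) and Dlat (-0.25 ± 0.14) and the pyruvate carrier genes Mpc1 (-0.56 ± 0.20) and Mpc2 (-0.29 ± 0.22) did not pass. Of the 14 members 10 had a negative change, and the median of -0.30 was -0.10 without normoxia-NaCl 1.

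Among 14 genes of mitochondrial adaptation and mitophagy, Ak4 and 1 other rose. Bnip3, a mitophagy receptor of the outer membrane, went from 17.5, 10.6 and 10.2 CPM in normoxia-NaCl to 54.1, 45.6 and 115 CPM in hypoxia-NaCl (2.49 ± 0.33, edgeR adjusted p = 0.0018). Hypoxia-NaCl 3 was the highest, more than 2 times the other hypoxia libraries, and the call was kept. Bnip3l, its close relative, had 152, 80.1 and 96.6 CPM in normoxia-NaCl and 134, 116 and 183 CPM in hypoxia-NaCl and did not pass (0.40 ± 0.26, edgeR adjusted p = 0.423). Fam162a, a mitochondrial protein gene known as a HIF target, had 19.2, 13.3 and 10.5 CPM in normoxia-NaCl and 26.9, 21.3 and 46.04 CPM in hypoxia-NaCl. It missed the threshold (1.14 ± 0.27, edgeR adjusted p = 0.0532) and passed with the block (0.0307), without normoxia-NaCl 1 (0.0308) and without hypoxia-NaCl 2 (0.0311). Ndufa4l2, a HIF-induced relative of a respiratory chain subunit, had 0, 0 and 0 reads in normoxia-NaCl and 21, 5 and 11 in hypoxia-NaCl, with no call (edgeR adjusted p = 0.103). The list's median was 0.16, and 0.07 without normoxia-NaCl 1, 0.05 without hypoxia-NaCl 3.

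Genes of oxidative metabolism had mostly negative changes, in amounts that differed with and without normoxia-NaCl 1. Of 22 tested genes of the tricarboxylic acid cycle 20 had a negative change, against 7384 of all 15088. Their median was -0.32 (-0.20 without normoxia-NaCl 1), and 1 fell. That gene, Idh2, the mitochondrial NADP-dependent isocitrate dehydrogenase, went from 51.5, 47.6 and 43.8 CPM in normoxia-NaCl to 27.1, 23.5 and 31.8 CPM in hypoxia-NaCl (-0.79 ± 0.16, edgeR adjusted p = 0.0272). The call was lost without normoxia-NaCl 1, hypoxia-NaCl 1 or 2, or normoxia-lactate 1 (edgeR adjusted p = 0.0536 to 0.121). With the block Idh1 was called higher (0.0286). All 33 nuclear-encoded genes of the respiratory chain had a negative change and none passed, against 1 fall without normoxia-NaCl 3. Their median of -0.42 was -0.21 without normoxia-NaCl 1, the library with the highest mitochondrial share. The 13 mitochondrially encoded genes were all negative, with a median of -0.38, and without that library the median was 0.15. Without normoxia-NaCl 3 it was -0.62.

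Of 21 angiogenic and vascular genes 2 rose and none fell, where 1.23% of all tested genes rose. The list's median was 0.37. Vegfa, the main growth factor for blood vessels, went from 38.9, 55.98 and 57.6 CPM in normoxia-NaCl to 185, 205 and 227 CPM in hypoxia-NaCl (2.02 ± 0.21, edgeR adjusted p = 0.000349). The 3 hypoxia libraries were all more than 3 times above the highest normoxia library, and the call was kept. Mif, the cytokine macrophage migration inhibitory factor, went from 94.4, 68.4 and 53.5 CPM in normoxia-NaCl to 181, 197 and 231 CPM in hypoxia-NaCl (1.49 ± 0.25, edgeR adjusted p = 0.00978), also kept. Adm, which encodes the vasodilator adrenomedullin, had 5, 12 and 9 reads in normoxia-NaCl and 57, 21 and 74 in hypoxia-NaCl (2.53 ± 0.64, edgeR adjusted p = 0.0667; 0.0494 with the block). Among 11 genes of acid and base transport (median 0.36, and 0.60 without hypoxia-NaCl 2), Car2, a cytosolic carbonic anhydrase, went from 1.17, 0.924 and 1.26 CPM in normoxia-NaCl to 4.60, 2.76 and 3.10 CPM in hypoxia-NaCl (1.64 ± 0.36, edgeR adjusted p = 0.0415). It was the only rise there and was lost without normoxia-NaCl 1, 2 or 3, hypoxia-NaCl 1, 2 or 3, or normoxia-lactate 1 or 2 (edgeR adjusted p = 0.0502 to 0.164). With the block Slc4a7 (0.0189) and Gpr132 (0.0217) were called higher too. Car9, a carbonic anhydrase gene widely used as a hypoxia marker, was not raised: it had 6.80, 5.71 and 6.11 CPM in normoxia-NaCl and 3.40, 2.10 and 4.06 CPM in hypoxia-NaCl, lower in all 3 hypoxia libraries and without a call (-0.96 ± 0.33, edgeR adjusted p = 0.159).

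Enzymes that modify collagen rose at 4 of 13 tested members, and all 4 calls were kept. P4ha1, a catalytic subunit of collagen prolyl hydroxylase, went from 52.8, 69.2 and 60.1 CPM in normoxia-NaCl to 256, 209 and 350.4 CPM in hypoxia-NaCl (2.16 ± 0.18, edgeR adjusted p = 0.000123). Its paralog P4ha2 went from 11.3, 12.96 and 12.5 CPM in normoxia-NaCl to 39.6, 37.1 and 56.1 CPM in hypoxia-NaCl (1.85 ± 0.21, edgeR adjusted p = 0.00061). In both, hypoxia-NaCl 3 was highest and every hypoxia library was more than 2 times above the highest normoxia library. Plod2, a lysyl hydroxylase, went from 0.75, 1.06 and 1.22 CPM in normoxia-NaCl to 6.04, 4.19 and 5.05 CPM in hypoxia-NaCl (2.31 ± 0.33, edgeR adjusted p = 0.0034). Ero1l, which encodes the oxidase that reoxidises protein disulfide isomerase, went from 24.9, 29.1 and 24.4 CPM in normoxia-NaCl to 61.8, 61.6 and 88.5 CPM in hypoxia-NaCl (1.43 ± 0.17, edgeR adjusted p = 0.00109). Their partners did not pass: P4hb, the shared beta subunit, had -0.0097 ± 0.17, and the lysyl hydroxylases Plod1 and Plod3 0.087 ± 0.16 and 0.074 ± 0.14. Lox, a lysyl oxidase, had 14.9, 8.78 and 7.58 CPM in normoxia-NaCl and 26.96, 19.1 and 13.9 CPM in hypoxia-NaCl, with overlapping groups and no call (edgeR adjusted p = 0.186), but a call with the block (0.0147). Loxl3 was lower with the block (-0.70 ± 0.27; 0.0372). The median of the 13 was 0.23, and 0.53 without normoxia-NaCl 1, 0.12 without normoxia-NaCl 2, 0.13 without normoxia-NaCl 3, 0.08 without hypoxia-NaCl 1, 0.51 without hypoxia-NaCl 3.

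Chromatin enzymes that use oxygen and 2-oxoglutarate rose at 3 of 20 tested members. Kdm3a, a histone H3 lysine 9 demethylase, went from 38.9, 50.4 and 46.6 CPM in normoxia-NaCl to 117, 112 and 172 CPM in hypoxia-NaCl (1.56 ± 0.18, edgeR adjusted p = 0.000633), and the call was kept. Jmjd6, a nuclear dioxygenase, went from 22.8, 27.99 and 31.8 CPM in normoxia-NaCl to 50.7, 47.02 and 58.4 CPM in hypoxia-NaCl (0.92 ± 0.15, edgeR adjusted p = 0.00883), kept but at 0.0647 in the 6 NaCl libraries alone. Kdm5b, a histone H3 lysine 4 demethylase, went from 28.1, 29.1 and 29.3 CPM in normoxia-NaCl to 41.7, 41.1 and 52.5 CPM in hypoxia-NaCl (0.65 ± 0.14, edgeR adjusted p = 0.0388). All 3 hypoxia values were above the normoxia values, which lay within 2 CPM of each other, but the call was lost without normoxia-NaCl 1, 2 or 3, hypoxia-NaCl 1, 2 or 3, normoxia-lactate 1, or hypoxia-lactate 1 or 2 (edgeR adjusted p = 0.059 to 0.152). Kdm2a (0.48 ± 0.12) and Jmjd1c (0.67 ± 0.22) were called with the block (0.0355 and 0.0304) and not in the main fit. Of 22 alternatives Kdm2a passed in 3 and Jmjd1c in 1. Kdm6a (0.50 ± 0.23), Kdm6b (0.79 ± 0.28) and Tet2 (0.66 ± 0.34) did not pass. Tet2 had 11.3, 44.4 and 42.4 CPM in normoxia-NaCl and 49.1, 49.4 and 56.9 CPM in hypoxia-NaCl, where normoxia-NaCl 1 was far below the other 5 libraries. Of the 20 members 16 had a positive change, and their median of 0.44 was 0.25 without normoxia-NaCl 1.

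A list of 44 tested regulators known to respond to hypoxia held 14 rises and no fall, the most of any list, with a median of 0.51. Besides Ankrd37 and Tpi1, given above, the smallest p were those of Narf, Arrdc3 and Ndrg1. Narf, which encodes a protein that binds prelamin A, went from 30.4, 41.8 and 36.3 CPM in normoxia-NaCl to 90.9, 81.96 and 101 CPM in hypoxia-NaCl (1.34 ± 0.14, edgeR adjusted p = 0.000423). Arrdc3, an alpha-arrestin, went from 11.1, 15.95 and 13.6 CPM in normoxia-NaCl to 34.1, 35.8 and 67.3 CPM in hypoxia-NaCl (1.75 ± 0.27, edgeR adjusted p = 0.00616), with hypoxia-NaCl 3 the highest. Ndrg1, a stress-responsive gene, went from 119, 118 and 127 CPM in normoxia-NaCl to 272, 223 and 433 CPM in hypoxia-NaCl (1.35 ± 0.21, edgeR adjusted p = 0.00644), kept but at 0.0596 in the 6 NaCl libraries alone. The other rises, named after their values were seen, included the kept calls of Zfp292 (1.42 ± 0.24), a zinc finger gene, and Rbpj (1.34 ± 0.23), the DNA-binding factor of Notch signalling. Both missed the threshold in the 6 NaCl libraries alone (0.0739 for each) and with hypoxia-lactate 3 (0.0694 and 0.0707). Ddit4, an inhibitor of mTORC1, rose by 1.98 ± 0.37, Stc2, a secreted glycoprotein gene, by 3.29 ± 0.61 and Txnip, a thioredoxin inhibitor, by 1.21 ± 0.24. Ddit4 lost its call without normoxia-NaCl 1 or 3 or hypoxia-NaCl 2 (edgeR adjusted p = 0.0592 to 0.0643), Stc2 without normoxia-NaCl 3 or hypoxia-NaCl 1 (edgeR adjusted p = 0.0599 to 0.0777), and Txnip without normoxia-NaCl 1 or 2 or hypoxia-NaCl 1 or 3 (edgeR adjusted p = 0.0539 to 0.107). Rcor2, a corepressor gene (2.42 ± 0.55), Btg1, an antiproliferative gene (0.97 ± 0.21), and Mxi1, an antagonist of Myc (0.70 ± 0.16), rose too. Rcor2 was lost without normoxia-NaCl 1, 2 or 3, hypoxia-NaCl 1 or 3, normoxia-lactate 1, 2 or 3, or hypoxia-lactate 1 or 2 (edgeR adjusted p = 0.0557 to 0.192), Btg1 without normoxia-NaCl 3, hypoxia-NaCl 1, 2 or 3, normoxia-lactate 1 or 3, or hypoxia-lactate 1 or 2 (edgeR adjusted p = 0.0561 to 0.114) and Mxi1 without normoxia-NaCl 2 or 3, hypoxia-NaCl 1, 2 or 3, normoxia-lactate 1, 2 or 3, or hypoxia-lactate 1 or 2 (edgeR adjusted p = 0.0615 to 0.202). With the block Arrdc4 was called higher (0.0196). Hilpda, a lipid droplet protein gene raised by HIF, had 3.42, 4.92 and 5.21 CPM in normoxia-NaCl and 7.56, 6.70 and 13.3 CPM in hypoxia-NaCl, with no overlap and no call (1.02 ± 0.28, edgeR adjusted p = 0.0849; 0.0408 with the block).

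Of the heat shock genes the inducible HSP70 pair rose and no other member passed: 2 of 21 tested members were called, while 14 had a negative change and the median was -0.21 (0.14 without normoxia-NaCl 1). Hspa1b went from 12.1, 15.1 and 12.8 CPM in normoxia-NaCl to 77.9, 81.8 and 39.9 CPM in hypoxia-NaCl (2.32 ± 0.30, edgeR adjusted p = 0.00153). Hspa1a, its near-identical neighbour, went from 19.6, 23.4 and 19.9 CPM in normoxia-NaCl to 104, 100.4 and 57.2 CPM in hypoxia-NaCl (2.06 ± 0.24, edgeR adjusted p = 0.000927). Hypoxia-NaCl 3 was the lowest hypoxia library for both, whereas it was the highest for Egln3, Ankrd37, Ak4 and Bnip3. Hspa1l, an HSP70 gene beside them and not on the list, went from 4.31, 3.15 and 3.89 CPM in normoxia-NaCl to 13.4, 11.5 and 9.93 CPM in hypoxia-NaCl (1.62 ± 0.20, edgeR adjusted p = 0.00109). All 3 calls were kept, but reads of Hspa1a and Hspa1b cannot be told apart with certainty. Fkbp4 was called lower with the block (0.0373), and without normoxia-NaCl 2 there was 1 fall in the list. The Hspa1b promoter is shown because heat shock factor is known to bind inverted GAA repeats. It is given as before, with capitals on the letters GAANNTTC, the same on both strands.
Hspa1b: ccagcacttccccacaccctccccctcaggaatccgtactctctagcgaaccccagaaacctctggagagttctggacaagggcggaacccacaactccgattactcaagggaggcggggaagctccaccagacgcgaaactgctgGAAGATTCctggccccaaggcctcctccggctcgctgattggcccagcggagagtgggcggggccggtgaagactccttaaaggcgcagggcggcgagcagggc
It lies at chr17:34959239-34959488, minus strand, holds GAANNTTC 1 time and neither ACGTG nor GCGTG. Of all RefSeq windows of this length 6.69% held GAANNTTC.

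**Figure D4:**
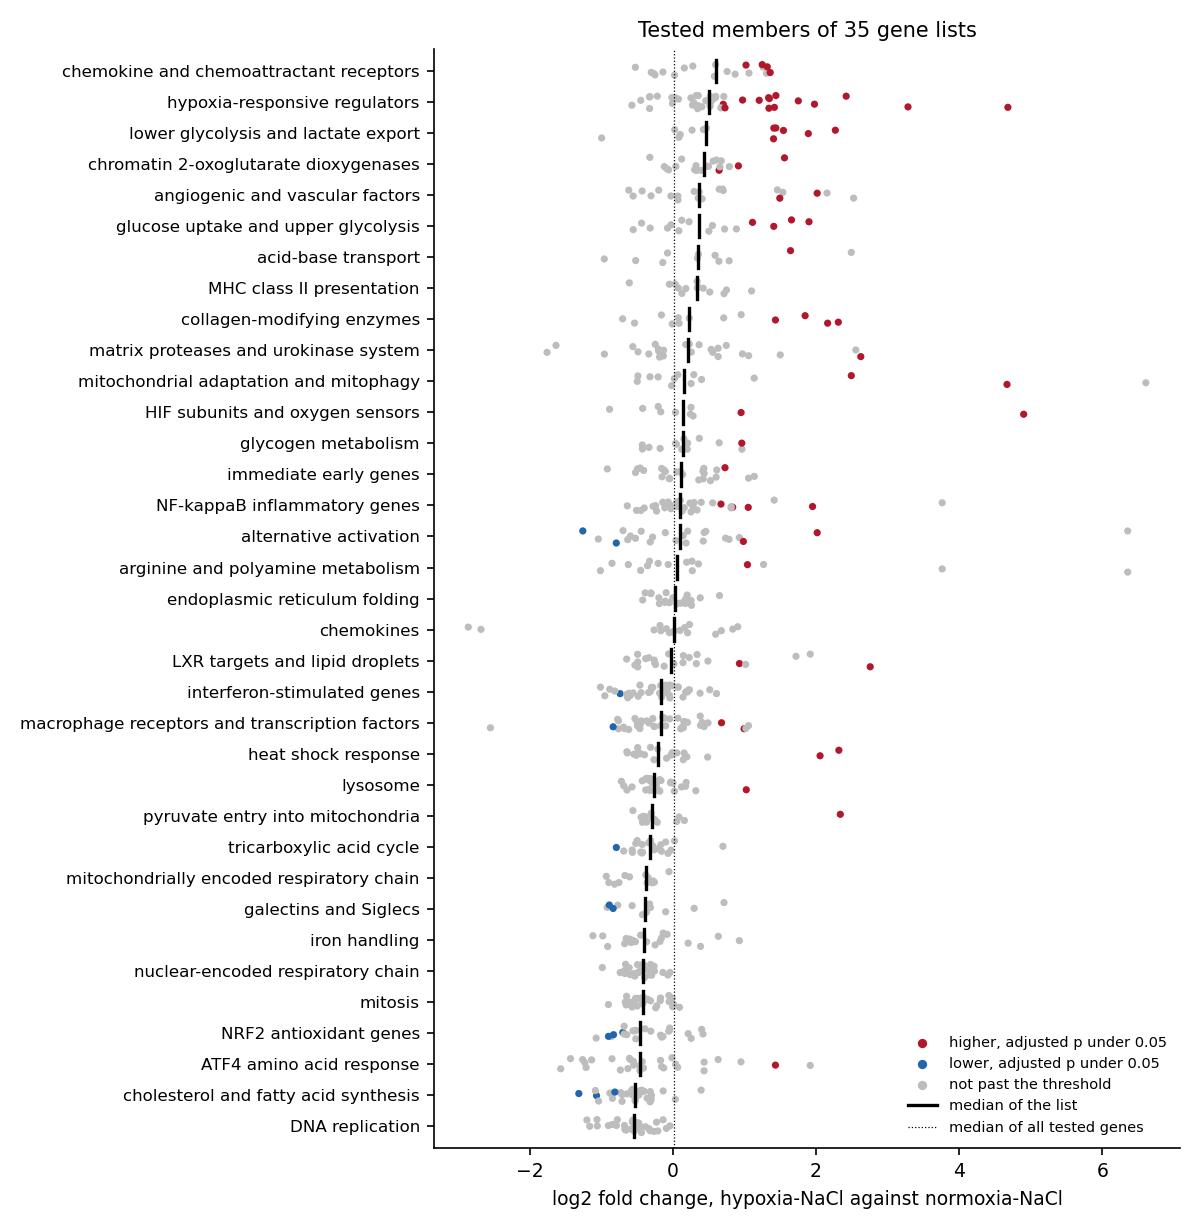
Each row is 1 of 35 gene lists and each point a tested member at its log2 fold change in low oxygen, red or blue where it passed the threshold, with a bar at the list's median and a dotted line at the median of all tested genes. Red points lie mainly in the hypoxia-responsive, glycolysis, collagen and chemoattractant receptor rows, and the lowest medians are those of DNA replication and cholesterol synthesis.

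Cysltr1, Ifitm6 and Gypc, outside the hypoxia lists, were among the largest kept rises. Cysltr1, a receptor for cysteinyl leukotrienes, went from 6.99, 9.62 and 6.03 CPM in normoxia-NaCl to 26.4, 27.1 and 37.6 CPM in hypoxia-NaCl (2.01 ± 0.25, edgeR adjusted p = 0.00138). Ifitm6, a member of the interferon-induced transmembrane family, went from 3.89, 5.38 and 3.73 CPM in normoxia-NaCl to 17.4, 20.3 and 12.8 CPM in hypoxia-NaCl (1.96 ± 0.21, edgeR adjusted p = 0.000498). Gypc, which encodes glycophorin C, went from 8.44, 9.35 and 8.52 CPM in normoxia-NaCl to 24.8, 28.4 and 32.6 CPM in hypoxia-NaCl (1.70 ± 0.16, edgeR adjusted p = 0.000192). In each the highest normoxia value was well below the lowest hypoxia value. With hypoxia-lactate 3 in the fit these 3 lost their calls (0.372, 0.0899 and 0.246), as did, among the kept calls above, Arrdc3 (0.11), Plod2 (0.445), Pgam1-ps2 (0.157), Ldha (0.109), Tpi1 (0.339), Eno1 (0.395), Jmjd6 (0.529) and Ndrg1 (0.426).

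Receptors for chemokines and chemoattractants had the highest median of the 35 lists, 0.60, with 4 of 19 tested members called higher and none lower. Of the risen receptors 3 are described here. Cx3cr1, the fractalkine receptor, went from 83.9, 90.3 and 51.6 CPM in normoxia-NaCl to 225, 202 and 136 CPM in hypoxia-NaCl (1.32 ± 0.23, edgeR adjusted p = 0.0138), and its call was lost only without hypoxia-NaCl 1 (edgeR adjusted p = 0.0736). Ccr2, the receptor that brings monocytes into tissue, went from 19.4, 38.3 and 19.8 CPM in normoxia-NaCl to 53.2, 57.1 and 47.03 CPM in hypoxia-NaCl (1.02 ± 0.23, edgeR adjusted p = 0.0423). C5ar2, a receptor for complement C5a, went from 5.86, 13.7 and 11.9 CPM in normoxia-NaCl to 21.9, 23.4 and 30.03 CPM in hypoxia-NaCl (1.25 ± 0.27, edgeR adjusted p = 0.0351). Both were higher in every hypoxia library, and both calls were weak: Ccr2 was lost without normoxia-NaCl 1 or 3, hypoxia-NaCl 1, 2 or 3, normoxia-lactate 1, 2 or 3, or hypoxia-lactate 1 or 2 (edgeR adjusted p = 0.0507 to 0.131), and C5ar2 without normoxia-NaCl 3, hypoxia-NaCl 1, 2 or 3, or normoxia-lactate 1 or 3 (edgeR adjusted p = 0.0552 to 0.141). Ccr1 and C3ar1 were called higher with the block (0.023 and 0.0234). Cxcr4, a receptor known to be raised by hypoxia, had 235, 458 and 433 CPM in normoxia-NaCl and 574, 563 and 566 CPM in hypoxia-NaCl, where normoxia-NaCl 1 was low and the rest closer (0.60 ± 0.22, edgeR adjusted p = 0.18). Of 17 tested chemokine genes none was called (Ccl2 lower with the block, 0.0185), with a median of 0.02 (0.12 without normoxia-NaCl 1, 0.08 without normoxia-NaCl 2, -0.16 without normoxia-NaCl 3, 0.04 without hypoxia-NaCl 1, -0.10 without hypoxia-NaCl 2, 0.23 without hypoxia-NaCl 3, 0.03 without hypoxia-lactate 1 or 2).

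Inflammatory genes of the NF-kappaB pathway had 4 rises among 35 tested members, none of them kept, and a median of 0.10 (0.06 without normoxia-NaCl 3, -0.02 without hypoxia-NaCl 1). Of all tested genes 1.23% rose. Il1b, the interleukin 1 beta gene, had 18, 31 and 32 reads in normoxia-NaCl and 183, 58 and 99 in hypoxia-NaCl, a change of 1.95 ± 0.36, edgeR adjusted p = 0.0167, at few reads in all libraries. Nfkbiz, an inducible regulator of NF-kappaB, went from 11.7, 19.9 and 18.3 CPM in normoxia-NaCl to 38.4, 38.5 and 27.03 CPM in hypoxia-NaCl (1.05 ± 0.20, edgeR adjusted p = 0.0212). Tnfaip3, whose product A20 restrains the pathway, went from 12.1, 19.8 and 13.01 CPM in normoxia-NaCl to 28.1, 26.7 and 25.2 CPM in hypoxia-NaCl (0.83 ± 0.18, edgeR adjusted p = 0.0378), and Traf1, an adaptor, from 29.3, 28.8 and 25.9 CPM in normoxia-NaCl to 51.9, 45.9 and 35.9 CPM in hypoxia-NaCl (0.67 ± 0.16, edgeR adjusted p = 0.0487). The call of Il1b was lost without normoxia-NaCl 3 or hypoxia-NaCl 1 or 3 (edgeR adjusted p = 0.0539 to 0.0945), that of Nfkbiz without hypoxia-NaCl 1 or 2 (edgeR adjusted p = 0.0809 to 0.102), that of Tnfaip3 without normoxia-NaCl 1 or 3, hypoxia-NaCl 1, 2 or 3, normoxia-lactate 1 or 3, or hypoxia-lactate 1 or 2 (edgeR adjusted p = 0.0525 to 0.137), and that of Traf1 without normoxia-NaCl 1, 2 or 3, hypoxia-NaCl 1 or 2, normoxia-lactate 1, 2 or 3, or hypoxia-lactate 1 or 2 (edgeR adjusted p = 0.0561 to 0.187). Nos2, the inducible nitric oxide synthase gene, had 0, 8 and 0 reads in normoxia-NaCl and 80, 18 and 28 in hypoxia-NaCl. It did not pass (3.76 ± 0.96, edgeR adjusted p = 0.0682), but did with the block (0.0365) and without normoxia-NaCl 2 (0.0167). Ier3 was called with the block (0.00835).

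Genes of alternative activation had 2 rises and 2 falls among 24 tested members, where 1.23% of all tested genes rose and 0.557% fell. The list's median was 0.09 (0.23 without normoxia-NaCl 1, 0.25 without normoxia-NaCl 2, 0.18 without normoxia-NaCl 3, 0.02 without hypoxia-NaCl 1, 0.19 without hypoxia-NaCl 2, 0.05 without hypoxia-NaCl 3). Besides Vegfa, Folr2, the folate receptor beta gene, went from 66.8, 59.1 and 57.5 CPM in normoxia-NaCl to 118, 118 and 126 CPM in hypoxia-NaCl (0.98 ± 0.15, edgeR adjusted p = 0.00505), and the call was kept. Mrc1, which encodes the mannose receptor CD206, went from 22.4, 27.3 and 22.3 CPM in normoxia-NaCl to 7.79, 8.55 and 13.8 CPM in hypoxia-NaCl (-1.26 ± 0.26, edgeR adjusted p = 0.0304). Tgm2, transglutaminase 2, went from 202, 155 and 151 CPM in normoxia-NaCl to 103, 84.1 and 106 CPM in hypoxia-NaCl (-0.79 ± 0.16, edgeR adjusted p = 0.0304). Both falls showed no overlap, and both were lost with a library left out, Mrc1 without normoxia-NaCl 2 or 3, hypoxia-NaCl 1 or 2, or normoxia-lactate 1 (edgeR adjusted p = 0.0534 to 0.138) and Tgm2 without normoxia-NaCl 1, hypoxia-NaCl 1, 2 or 3, or normoxia-lactate 1 (edgeR adjusted p = 0.0595 to 0.131). Arg1, arginase 1, was close to absent, with 0, 0 and 0 reads in normoxia-NaCl and 8, 1 and 19 in hypoxia-NaCl, and no call (edgeR adjusted p = 0.191). Among 16 genes of arginine and polyamine metabolism (median 0.06; 0.14 without normoxia-NaCl 1, 0.19 without normoxia-NaCl 2, 0.00 without normoxia-NaCl 3, 0.01 without hypoxia-NaCl 1, -0.07 without hypoxia-NaCl 2, 0.18 without hypoxia-NaCl 3) Smox, spermine oxidase, was the only call, going from 85.4, 115 and 111 CPM in normoxia-NaCl to 186, 186 and 269.6 CPM in hypoxia-NaCl (1.04 ± 0.18, edgeR adjusted p = 0.0125). It was kept, but stood at 0.0739 in the 6 NaCl libraries alone and 0.458 with hypoxia-lactate 3. With the block Fn1 (0.0192), Nos2 and Slc7a2 (0.00234) were also higher and Gas6 (0.0234), Slc7a1 (0.0243) and Ass1 (0.0178) lower.

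Of 41 macrophage receptors and transcription factors 2 rose and 1 fell, where 1.23% and 0.557% of all tested genes did, so the counts say little of the list. Its median was -0.17 (-0.11 without normoxia-NaCl 1 or hypoxia-NaCl 2). Cd14, the lipopolysaccharide coreceptor, went from 904, 615 and 532 CPM in normoxia-NaCl to 1613, 1379 and 1096 CPM in hypoxia-NaCl (0.99 ± 0.22, edgeR adjusted p = 0.0417), and Tlr4, its signalling partner, from 93.5, 89.9 and 71.8 CPM in normoxia-NaCl to 140.2, 139 and 129.6 CPM in hypoxia-NaCl (0.68 ± 0.15, edgeR adjusted p = 0.0402). Cd33, a sialic acid-binding inhibitory receptor, went from 17.1, 22.1 and 18.96 CPM in normoxia-NaCl to 11.3, 9.59 and 11.7 CPM in hypoxia-NaCl (-0.84 ± 0.19, edgeR adjusted p = 0.0487). Lgals9, which encodes galectin-9, went from 46.8, 56.9 and 38.4 CPM in normoxia-NaCl to 23.4, 24.7 and 28.6 CPM in hypoxia-NaCl (-0.89 ± 0.19, edgeR adjusted p = 0.0339), and with Cd33 made up the 2 falls among 12 galectins and Siglecs (median -0.40). In all 4 genes the groups did not overlap. Cd14 was lost without normoxia-NaCl 2 or 3, hypoxia-NaCl 1, 2 or 3, or normoxia-lactate 1, 2 or 3 (edgeR adjusted p = 0.05 to 0.164), Tlr4 without normoxia-NaCl 2 or 3, hypoxia-NaCl 1, 2 or 3, normoxia-lactate 2, or hypoxia-lactate 1 or 2 (edgeR adjusted p = 0.0505 to 0.141), Cd33 without normoxia-NaCl 2 or 3, hypoxia-NaCl 1, 2 or 3, normoxia-lactate 1 or 3, or hypoxia-lactate 1 or 2 (edgeR adjusted p = 0.0651 to 0.174), and Lgals9 without normoxia-NaCl 1 or 2 or hypoxia-NaCl 1, 2 or 3 (edgeR adjusted p = 0.0589 to 0.143). With the block the receptor list had 5 rises and 4 falls, against 2.47% and 2.62% of all tested genes. The block added Fcgr2b (0.00747), Trem1 (0.0445) and Mitf (0.0415) above and Itgax (0.0193), Axl (0.0203) and Msr1 (0.0231) below. It added Lgals3bp (0.0257) below and Siglecf (0.0267) above to the galectins and Siglecs.

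Interferon-stimulated genes had 1 fall among 38 tested members, where 0.557% of all tested genes fell, and a median of -0.16. Bst2, which encodes the antiviral tetherin, went from 76.4, 57.4 and 63.96 CPM in normoxia-NaCl to 42.3, 39.01 and 37.2 CPM in hypoxia-NaCl (-0.74 ± 0.14, edgeR adjusted p = 0.0167), and was lost without hypoxia-NaCl 1, 2 or 3 (edgeR adjusted p = 0.057 to 0.0805). With the block Oas3 was also lower (0.0372). Bst2 is counted among dendritic cell markers too, whose sum was 67.7 to 87.5 CPM in normoxia-NaCl and 45.5 to 52.0 CPM in hypoxia-NaCl. Most of that sum was Bst2 itself, while Xcr1 was at 0 and 7 of the 12 markers were below 1 CPM in all 6 libraries. The 14 MHC class II genes had no call and a median of 0.34, which was 0.049 without normoxia-NaCl 2, 0.13 without hypoxia-NaCl 1 and 0.22 without hypoxia-NaCl 3. With the block Ciita (0.0184) was higher and Ifi30 (0.0181) lower.

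Genes of sterol and fatty acid synthesis had mostly negative changes. Of 33 tested genes 31 had a negative change, against 7384 of all 15088. The median was -0.52, with -0.60 to -0.43 over the fits that leave out 1 library. The test called 3 of them lower and none higher. Mvk, mevalonate kinase, went from 28.1, 16.2 and 15.4 CPM in normoxia-NaCl to 7.75, 9.56 and 6.60 CPM in hypoxia-NaCl (-1.32 ± 0.28, edgeR adjusted p = 0.0351). Fdps, farnesyl diphosphate synthase, went from 40.1, 42.3 and 25.7 CPM in normoxia-NaCl to 18.02, 21.2 and 12.3 CPM in hypoxia-NaCl (-1.07 ± 0.23, edgeR adjusted p = 0.0388). Fads1, a fatty acid desaturase, went from 256, 162 and 159.5 CPM in normoxia-NaCl to 111, 112 and 106 CPM in hypoxia-NaCl (-0.81 ± 0.17, edgeR adjusted p = 0.0348). In each gene every hypoxia library was below every normoxia library. None of the 3 was kept: Mvk was lost without normoxia-NaCl 1, hypoxia-NaCl 1, 2 or 3, normoxia-lactate 1, or hypoxia-lactate 1 or 2 (edgeR adjusted p = 0.0551 to 0.152), Fdps without normoxia-NaCl 1 or 2, hypoxia-NaCl 1, 2 or 3, normoxia-lactate 1 or 3, or hypoxia-lactate 1 or 2 (edgeR adjusted p = 0.0502 to 0.146) and Fads1 without hypoxia-NaCl 1, 2 or 3, normoxia-lactate 1 or 3, or hypoxia-lactate 1 or 2 (edgeR adjusted p = 0.0508 to 0.135). With the block 11 fell, against 2.62% of all tested genes. The added genes, named after their values were seen, included Fdft1 (0.0106) and the master regulator Srebf2 (0.0354).

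Of 24 LXR targets and lipid droplet genes 2 rose, where 1.23% of all tested genes did. The list's median was -0.02 (0.01 without normoxia-NaCl 1, -0.05 without normoxia-NaCl 2, 0.08 without normoxia-NaCl 3, 0.06 without hypoxia-NaCl 1, 0.11 without hypoxia-NaCl 2, -0.08 without hypoxia-NaCl 3). Apoc2, the lipoprotein lipase activator, went from 39.9, 30.2 and 31.99 CPM in normoxia-NaCl to 67.9, 67.95 and 58.5 CPM in hypoxia-NaCl (0.93 ± 0.16, edgeR adjusted p = 0.0124), and Gpat3, which makes triglyceride precursors, from 0.0938, 1.41 and 0.499 CPM in normoxia-NaCl to 3.23, 5.91 and 5.08 CPM in hypoxia-NaCl (2.76 ± 0.64, edgeR adjusted p = 0.0495). Both were lost with a library left out, Apoc2 without hypoxia-NaCl 1 or 2 (edgeR adjusted p = 0.0505 to 0.063) and Gpat3 without normoxia-NaCl 1 or 3, hypoxia-NaCl 1, 2 or 3, normoxia-lactate 1 or 3, or hypoxia-lactate 1 or 2 (edgeR adjusted p = 0.0533 to 0.142). The block called 6 higher and 1 lower, against 2.47% and 2.62% of all tested genes. Among the 6 was the cholesterol exporter Abca1 (8.35e-05). Of those 7, Abca1, Abcg1 (0.0481), Hilpda and Vldlr (0.0214) were the added rises and Fabp5 (0.0464) the added fall.

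Antioxidant genes controlled by NRF2 had 3 falls and no rise among 24 tested members, with a median of -0.45 (-0.28 without normoxia-NaCl 1 and -0.29 without hypoxia-NaCl 3). G6pdx, the entry enzyme of the pentose phosphate pathway, went from 369.6, 277 and 260.4 CPM in normoxia-NaCl to 191, 181 and 186 CPM in hypoxia-NaCl (-0.70 ± 0.15, edgeR adjusted p = 0.0375). Gstm1, a glutathione transferase, went from 434, 315 and 312 CPM in normoxia-NaCl to 186, 220.3 and 190.4 CPM in hypoxia-NaCl (-0.83 ± 0.19, edgeR adjusted p = 0.0481). Osgin1, an oxidative stress gene, went from 70.4, 64.1 and 66.1 CPM in normoxia-NaCl to 41.2, 34.9 and 31.3 CPM in hypoxia-NaCl (-0.90 ± 0.21, edgeR adjusted p = 0.0487). Osgin1 was called in the 6 NaCl libraries alone (0.0483) and the others were not. None was kept: G6pdx was lost without hypoxia-NaCl 1, 2 or 3, normoxia-lactate 1, or hypoxia-lactate 1 or 2 (edgeR adjusted p = 0.0625 to 0.135), Gstm1 without normoxia-NaCl 1 or 3, hypoxia-NaCl 1, 2 or 3, or normoxia-lactate 1, 2 or 3 (edgeR adjusted p = 0.0524 to 0.179), and Osgin1 without normoxia-NaCl 1, 2 or 3, hypoxia-NaCl 1, 2 or 3, normoxia-lactate 1, or hypoxia-lactate 1 or 2 (edgeR adjusted p = 0.0593 to 0.208). The block called 9 lower, against 2.62% of all tested genes. Hmox1, heme oxygenase 1, a gene of both NRF2 and iron handling, had 284, 284 and 244 CPM in normoxia-NaCl and 290.2, 333 and 317 CPM in hypoxia-NaCl (0.21 ± 0.17, edgeR adjusted p = 0.514). Among 20 iron genes none was called, with a median of -0.41 (-0.23 without normoxia-NaCl 1). Without normoxia-NaCl 2 there were 4 falls, and without normoxia-lactate 2 there were 2. The block called 4 of them lower: the iron exporter Slc40a1 (0.0152), the ferritin light chain gene Ftl1 (0.0297), Hfe (0.0266) and Blvrb (0.0249).

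The amino acid response driven by ATF4 had 22 of 30 tested genes with a negative change and a median of -0.46 (-0.29 without normoxia-NaCl 1 or without hypoxia-NaCl 3). In lactate medium the median of the list was 0.179. The list's only call in NaCl medium was the rise of Ero1l given above. With the block 3 rose and 9 fell, against 2.47% and 2.62% of all tested genes. The falls included asparagine synthetase, Asns (0.0106), and Mthfd2 of mitochondrial folate metabolism (0.00633). Both were named after their values were seen. Of 22 endoplasmic reticulum folding genes none was called, with or without the block, and the median was 0.03, with -0.063 to 0.075 when 1 library was left out.

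Genes of cell division had negative changes that did not pass the test. All 33 DNA replication genes had a negative change, with a median of -0.54 (-0.31 without normoxia-NaCl 2), and 28 of 30 mitosis genes did, with a median of -0.42 (-0.14 without normoxia-NaCl 2 and -0.27 without hypoxia-NaCl 3). Over all 15088 tested genes 7384 had a negative change. None was called in either list, while without normoxia-NaCl 3 there were 2 falls among the replication genes and without normoxia-lactate 3 there was 1. With the block 8 replication genes fell, among them the helicase subunit Mcm5 (0.000487), and 4 mitosis genes: Ccna2 (0.0408), Bub1b (0.0494), Plk1 (0.015) and Ncapd2 (0.0174). Of all tested genes 2.62% fell with the block. Rfc2, a subunit of the clamp loader at the replication fork and not on the list, went from 50.8, 39.1 and 42.4 CPM in normoxia-NaCl to 25.3, 23.8 and 23.7 CPM in hypoxia-NaCl (-0.86 ± 0.14, edgeR adjusted p = 0.00907). It was 1 of the 3 kept falls, but stood at 0.0581 in the 6 NaCl libraries alone and 0.585 with hypoxia-lactate 3.

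The other kept falls were Lrrc27 and Csrp1. Lrrc27, which encodes a leucine-rich repeat protein, went from 65.5, 51.5 and 58.5 CPM in normoxia-NaCl to 23.3, 24.5 and 24.7 CPM in hypoxia-NaCl (-1.28 ± 0.14, edgeR adjusted p = 0.00061). Csrp1, which encodes a LIM-domain protein tied to the actin cytoskeleton, went from 118, 105 and 94.97 CPM in normoxia-NaCl to 52.9, 55.4 and 53.4 CPM in hypoxia-NaCl (-0.97 ± 0.13, edgeR adjusted p = 0.00207). In both, and in Rfc2, the hypoxia libraries lay within a few CPM of each other, and all 3 normoxia libraries were above them. Bcl2l1, the gene of the survival protein BCL-XL, went from 68.1, 43.1 and 52.02 CPM in normoxia-NaCl to 27.2, 20.8 and 20.6 CPM in hypoxia-NaCl (-1.25 ± 0.21, edgeR adjusted p = 0.0113). It was called in the 6 NaCl libraries alone (0.0483) and lost without hypoxia-NaCl 2 or 3 (edgeR adjusted p = 0.0586 to 0.059).

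The remaining lists held single rises, where 1.23% of all tested genes rose, so a single call says little of its list. Ctsk, cathepsin K, a collagen-degrading protease, went from 66.8, 59.6 and 90.5 CPM in normoxia-NaCl to 156, 124 and 161 CPM in hypoxia-NaCl (1.03 ± 0.20, edgeR adjusted p = 0.0247). It was the only call among 32 lysosomal genes, whose median was -0.27 (-0.17 without normoxia-NaCl 1), and was lost without normoxia-NaCl 1 or 2 or hypoxia-NaCl 1 or 3 (edgeR adjusted p = 0.0534 to 0.105). With the block Ctsd (0.0257) and Naglu (0.0256) fell. Ctsk and Car2 are also osteoclast genes, whose 12 members summed to 368 to 611 CPM in normoxia-NaCl and 422 to 644 CPM in hypoxia-NaCl, with Calcr at 0. Mmp13, a collagenase, was the only call among 26 matrix protease and urokinase genes (median 0.20; 0.33 without normoxia-NaCl 3, 0.03 without hypoxia-NaCl 1, 0.10 without hypoxia-NaCl 2), going from 4.64, 11.2 and 11 CPM in normoxia-NaCl to 38.7, 32.98 and 96.1 CPM in hypoxia-NaCl (2.63 ± 0.48, edgeR adjusted p = 0.0159). Hypoxia-NaCl 3 was more than 2 times the others, and the call was lost only without hypoxia-NaCl 3 (edgeR adjusted p = 0.0517). With the block Mmp12 (0.00827), Mmp27 (0.0124), F10 (0.0163) and F13a1 (8.4e-05) also rose and Timp1 (0.0233) fell. Fosl2, an AP-1 subunit, was the only call among 25 immediate early genes (median 0.11; -0.01 without normoxia-NaCl 1, 0.22 without normoxia-NaCl 2, 0.18 without normoxia-NaCl 3, 0.02 without hypoxia-NaCl 1), going from 60.5, 88.2 and 81.8 CPM in normoxia-NaCl to 123, 122 and 136 CPM in hypoxia-NaCl (0.73 ± 0.16, edgeR adjusted p = 0.0415), and was lost without normoxia-NaCl 1 or 3, hypoxia-NaCl 1, 2 or 3, normoxia-lactate 1, or hypoxia-lactate 1 or 2 (edgeR adjusted p = 0.0641 to 0.152). With the block Klf6 (0.0254) and Btg2 (0.0482) were added.

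The same oxygen change was measured a second time in lactate medium, in libraries that belong to neither NaCl group. The filter, scaling and spread behind the NaCl calls did draw on these libraries, so they are not a fully separate set. In lactate medium 98 genes were called higher (0.65%) and 32 lower (0.212%), 0.862% in all. Of the 186 genes that rose in NaCl medium, 186 had a positive change in lactate medium and 79 passed there (42.5%). Of the 84 that fell, 84 had a negative change and 11 passed (13.1%). Over all tested genes 48.6% were positive in lactate medium. Medians of whole lists did not all repeat there. The ATF4 list had 0.179 in lactate and -0.456 in NaCl medium, and MHC class II genes -0.092 and 0.339. Nearer 0 were mitosis (-0.045 and -0.421), NRF2 (-0.093 and -0.454) and nuclear-encoded respiratory chain genes (-0.16 and -0.418). Sterol and fatty acid synthesis (-0.363 and -0.524) and lower glycolysis (0.68 and 0.467) stayed further from 0. The median change of the risen genes was 1.23 in NaCl and 0.98 in lactate medium, and that of the fallen genes -0.87 and -0.60. With hypoxia-lactate 3 in the fit, 185 risen and 71 fallen genes had the same direction, and 27 and 1 passed in lactate medium. The lactate medium count of 130 calls was 380 without normoxia-NaCl 1, 76 without hypoxia-NaCl 1, 17, 78 and 57 without normoxia-lactate 1, 2 and 3, 26 and 44 without hypoxia-lactate 1 and 2, and 261 with the block.

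The leading genes had changes of like size in both media. Egln3 rose by 4.90 ± 0.22 in NaCl and 4.44 ± 0.21 in lactate medium, Slc16a3 by 2.27 ± 0.24 and 2.15 ± 0.25, and Vegfa by 2.02 ± 0.21 and 1.83 ± 0.22. Whether the oxygen effect differed with the medium was tested by the interaction of both, which called no gene (edgeR lowest adjusted p = 0.254; 609 genes at an unadjusted p under 0.05; 3 with DESeq2 and 0 with limma-voom). The 3 genes of DESeq2, also called by edgeR with no filter on low counts, were the predicted genes Gm11353, Gm10364 and Gm14111, and Gm14111 was called without normoxia-NaCl 3 as well. Among the called genes 8 rises and 13 falls had an unadjusted interaction p under 0.05. Among the smallest were those of St14, a membrane serine protease (NaCl -1.78 ± 0.31, lactate medium -3.28 ± 0.42, unadjusted p = 0.0108), Ezr, which encodes the membrane linker ezrin (-0.63 ± 0.14 and -0.044 ± 0.16, 0.016) and G6pdx (-0.70 ± 0.15 and -0.099 ± 0.17, 0.0187). The call of St14 in NaCl medium was lost without hypoxia-NaCl 2 (edgeR adjusted p = 0.0621), and that of Ezr without normoxia-NaCl 1 or 3, hypoxia-NaCl 1, 2 or 3, normoxia-lactate 1, 2 or 3, or hypoxia-lactate 1 or 2 (edgeR adjusted p = 0.0523 to 0.193). None of these differences passed the adjusted test, which does not show that the media act alike.

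**Figure D5:**
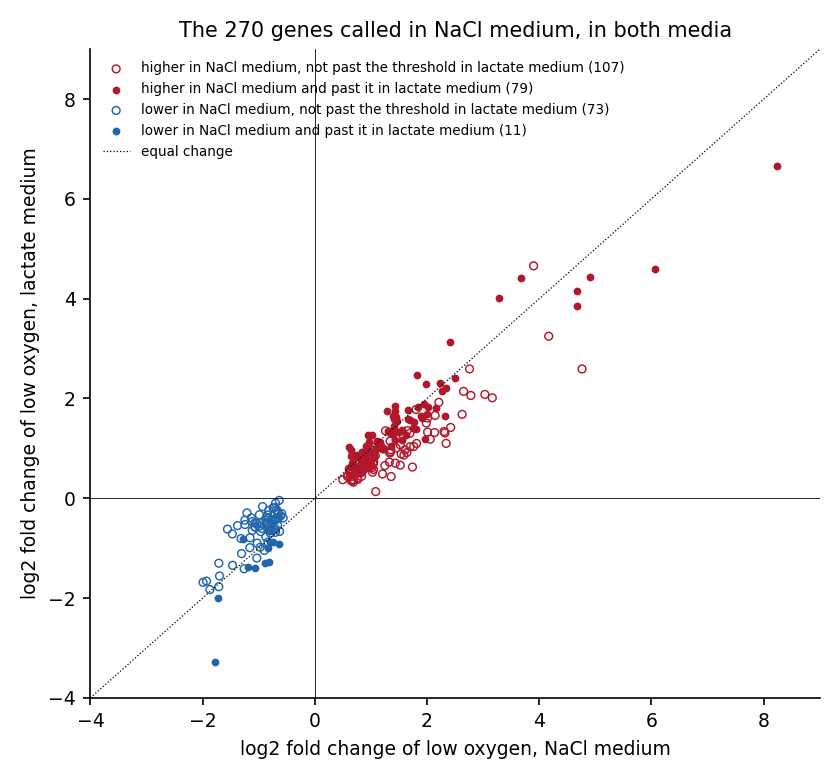
Each point is 1 of the 270 genes called in NaCl medium, placed by its log2 fold change in NaCl medium (horizontal) and in lactate medium (vertical), filled where it also passed in lactate medium. All 186 red and 84 blue points lie on the same side of 0 in both media, and the medians are nearer 0 in lactate medium, at 0.98 and -0.60 against 1.23 and -0.87.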

How the data were processed

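Poly(A) RNA of 12 libraries was sequenced on an Ion Proton after 16 cycles of PCR, per the labels' protocols. BWA, HTSeq and mouse build mm9 appear in the submitters' processing notes. No source used here gives the strand setting or annotation release. The authors deposited 1 table of raw counts per Ensembl gene. 32897 of 37620 IDs matched a symbol in the gene table used. The 5 HTSeq counter rows were left out. Of each column's total they held 13.7% to 22.0% (no feature), 8.34% to 18.4% (not unique), 2.02% to 5.48% (not aligned), 0.361% to 0.443% (ambiguous) and 0 (low quality).

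Counts were scaled by TMM, filtered with filterByExpr and fitted by edgeR 4.0.16 (quasi-likelihood) in R 4.3.3 to the 11 libraries without hypoxia-lactate 3, with 1 mean per group and Benjamini-Hochberg adjustment over all tested genes. The shared spread was a coefficient of variation of 24.3%. The script was tested on simulated data with known changes. limma 3.58.1 and DESeq2 1.42.0 were alternatives. Deviations of same-numbered NaCl libraries from their group mean correlated at 0.131, 0.300 and 0.187, and of others at -0.249 to 0.0546. Such deviations sum to 0 within a group, so positive values for like numbers bring negative ones for unlike numbers. What the numbers stand for, the labels do not say. The like-numbered values were all above 0.1, the limit used to count libraries as paired. The main fit and the fits that leave out 1 library still took no account of library numbers, and the replicate block did.

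Named were the 20 largest kept rises and falls with a mean of at least 5 CPM, up to 5 called members per list each way, members of 8 hypoxia lists, single genes of interest and the smallest interaction p. The comparison, lists and rules were chosen with earlier results of these data known. Results for a few genes are not reported here.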

Additional observations from a re-analysis of the deposited data

How the results depend on the processing

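The count of 270 genes called in NaCl medium was 553 (299 higher, 254 lower) with no filter on low counts, 912 with DESeq2 (46.4% higher, against 68.9%), 41 with all 12 libraries, 59 with only the groups compared and 767 with the replicate block. Leaving out 1 library gave 94 to 346. The 130 calls in lactate medium were 268 with no filter, 530 with DESeq2, 33 with all 12 libraries, 205 with only the groups compared, 261 with the replicate block and 2451 with both of the last 2, an alternative chosen after seeing the data, and 17 to 380 with 1 library left out. The interaction called 0 genes, 3 with no filter, 3 with DESeq2 and 0 to 1 with 1 library left out. Other scalings, a filter at 5 CPM, limma-voom and a robust spread kept the NaCl count between 251 and 279. Without hypoxia-lactate 1 or 2 that group has 1 library, assumed to vary like the others. No named gene changed sign under an alternative while called. Of 75 called named genes 26 passed in every alternative, and 18 uncalled ones passed in some. The replicate block changed no calls of named genes other than those given above. At 25328963 to 49438500 reads in genes per NaCl library, Arg1 and Ndufa4l2 had few reads: Arg1 passed in none of the 16 alternatives that gave it a value, and Ndufa4l2 in 1 of 18, with no filter on low counts.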

Other observations

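Outside the lists, 129 rises and 72 falls were called, and the genes named here were chosen after their values were seen. Mgarp, which encodes a mitochondrial protein known to respond to HIF, had 0, 0 and 4 reads in normoxia-NaCl and 104, 54 and 116 in hypoxia-NaCl, and the call was kept (edgeR adjusted p = 0.0018). A gene with no symbol in the gene table used, ENSMUSG00000087562, had 0, 1 and 1 reads in normoxia-NaCl and 193, 119 and 358 in hypoxia-NaCl, also kept (edgeR adjusted p = 0.000347). Il15, a cytokine that sustains natural killer and memory T cells, went from 12.4, 19.9 and 17.5 CPM in normoxia-NaCl to 38.6, 38.3 and 49.3 CPM in hypoxia-NaCl (log2 fold change 1.34 ± 0.18, edgeR adjusted p = 0.00223). Every hypoxia library was above every normoxia library, and the call was kept. Sdc4, the cell-surface proteoglycan syndecan-4, went from 31.4, 48.8 and 53.6 CPM in normoxia-NaCl to 99.2, 84.1 and 154 CPM in hypoxia-NaCl (1.33 ± 0.23, edgeR adjusted p = 0.0111), also kept. Il1r1, the interleukin 1 receptor gene, went from 1.45, 3.37 and 2.49 CPM in normoxia-NaCl to 12, 12.4 and 5.08 CPM in hypoxia-NaCl (1.99 ± 0.35, edgeR adjusted p = 0.0129) and was lost without hypoxia-NaCl 1 (edgeR adjusted p = 0.063).

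Among the falls, Pycard, the inflammasome adaptor gene ASC, went from 101, 81.8 and 84.1 CPM in normoxia-NaCl to 58.3, 43.97 and 47.7 CPM in hypoxia-NaCl (-0.83 ± 0.16, edgeR adjusted p = 0.0244). Cad, the first enzyme of pyrimidine synthesis, went from 41.5, 36.04 and 40.9 CPM in normoxia-NaCl to 29.9, 23.2 and 19.7 CPM in hypoxia-NaCl (-0.70 ± 0.16, edgeR adjusted p = 0.0459), and Mthfd1, a folate enzyme, from 25.1, 23.9 and 22.7 CPM in normoxia-NaCl to 15.2, 15.6 and 12.5 CPM in hypoxia-NaCl (-0.73 ± 0.15, edgeR adjusted p = 0.0332). The groups did not overlap in any of these 3. Pycard was lost without normoxia-NaCl 1 or hypoxia-NaCl 2 or 3 (edgeR adjusted p = 0.0535 to 0.109), Cad without normoxia-NaCl 1 or 3, hypoxia-NaCl 2 or 3, normoxia-lactate 1, 2 or 3, or hypoxia-lactate 1 or 2 (edgeR adjusted p = 0.0583 to 0.183), and Mthfd1 without normoxia-NaCl 1, 2 or 3, hypoxia-NaCl 1, 2 or 3, or normoxia-lactate 1 (edgeR adjusted p = 0.0506 to 0.146).

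Most of the 16 neutrophil genes were highest in the libraries numbered 2 of both groups, though 7 of the 16 were below 1 CPM in all 6 libraries. The 3 given first were chosen after their values were seen. S100a9, a calcium-binding protein of neutrophils, had 0.61, 18.6 and 0.259 CPM in normoxia-NaCl and 0.292, 12.96 and 1.02 CPM in hypoxia-NaCl, Ltf, lactoferrin, 0.0469, 11.1 and 0.0798 CPM in normoxia-NaCl and 0.0625, 3.21 and 0 CPM in hypoxia-NaCl, and Ngp, a granule protein, 0.328, 11.9 and 0.14 CPM in normoxia-NaCl and 0.0625, 5.08 and 0.363 CPM in hypoxia-NaCl. S100a8 (8.24 CPM in normoxia-NaCl 2, 5.40 CPM in hypoxia-NaCl 2) and Mmp8 (129.8 and 174.8 CPM) were also highest there. The genes that differed were Mpo, Csf3r, Cxcr2 and Ly6g. Mpo, myeloperoxidase, had 1.97, 1.82 and 0.239 CPM in normoxia-NaCl and 0.333, 2.19 and 0.099 CPM in hypoxia-NaCl. Csf3r, a cytokine receptor, had 70.3, 58.1 and 84.5 CPM in normoxia-NaCl and 64.1, 46.8 and 67.2 CPM in hypoxia-NaCl, lowest in the libraries numbered 2.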
